A study of Homo sapiens with 12 samples.

Results

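Human chromosome 19 carries the densest set of KRAB zinc finger genes in the genome. The messenger RNA of its zinc finger genes was followed here in a melanoma line and in 3 daughter lines that tolerate BRAF and MEK inhibitors. The genes described are all protein-coding genes on chromosome 19 whose symbol is ZNF followed by a number. There are 227 of them among 23497 genes in the count table, 14663 of which are protein-coding. Members were taken by name and position, not by expression, but the set was chosen with earlier results of these data known. Whether each encodes a KRAB domain was not checked, so the set may include zinc finger genes without one. A further 240 protein-coding ZNF genes lie on other chromosomes.

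The cells are WM1366, a human melanoma line that carries mutant NRAS. Encorafenib with binimetinib was given to the EB-resistant line, vemurafenib with cobimetinib to the VC-resistant line and dabrafenib with trametinib to the DT-resistant line; in each pair the first drug inhibits BRAF and the second inhibits MEK. The sensitive parent received DMSO, the solvent. Each of the 4 groups has 3 libraries of polyadenylated RNA, with the replicate numbers 2, 5 and 6, from 3 independent experiments, and cells were lysed 72 h after seeding. Every resistant group is a single daughter line, the drugs were present in its medium, and neither doses nor the number of founder cells is given in the sources used here. Resistance, drug exposure, culture history and line can therefore not be told apart, and standard errors measure the spread between experiments with the same line.

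KRAB zinc finger proteins bind DNA through tandem zinc fingers, each of which contacts a short stretch of bases. Their KRAB domain recruits the corepressor TRIM28, which brings in the histone methyltransferase SETDB1, and many of these proteins silence families of transposable elements in this way. The genes arose by repeated tandem duplication, so neighbours are often near relatives of similar sequence.

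Library totals ran from 40491309 to 54495132 counts. The melanocyte regulator MITF was present at 53.3 ± 3.03 CPM in EB-resistant, 66.4 ± 5.70 in VC-resistant, 66.3 ± 3.30 in DT-resistant and 47.2 ± 5.75 in sensitive cells (mean ± SD, n = 3 libraries each; CPM is the count scaled to a common library total), while the pigment genes PMEL, TYRP1 and DCT stayed under 1 CPM in every group. SOX9 averaged 7.81, 16.25 and 16.1 CPM in EB-, VC- and DT-resistant cells, against 86.85 CPM in sensitive cells. In the same order CSPG4 averaged 110, 214 and 78.0 against 74.6 CPM, and PAX3 30.7, 23.8 and 21.1 against 21.1 CPM. S100A1 averaged at most 0.049 CPM. Of the 12 melanocyte and melanoma markers looked up, 8 are in the table used. They summed to 197 to 208 CPM in EB-resistant, 302 to 353 in VC-resistant, 170 to 191 in DT-resistant and 219 to 241 CPM in sensitive libraries. SOX10, MLANA, TYR and S100B were looked up and are not in the count table used, so no level can be given for them. Summed fibroblast markers (4 of 4 in the table, mostly THY1) were 469 to 536 CPM in EB-resistant, 266 to 304 in VC-resistant, 248 to 260 in DT-resistant and 108 to 147 CPM in sensitive libraries, and summed epithelial markers (3 of 4, mostly KRT18) were 182 to 207, 79.0 to 96.4, 62.3 to 67.3 and 269 to 348 CPM in the same order of groups. Single fibroblast markers differed in level. PDGFRB averaged 74.5 CPM for EB-resistant, 2.6 for VC-resistant and 2.49 for DT-resistant against 0.784 CPM for sensitive cells. COL1A1 averaged 17.9, 0.603 and 3.57 CPM in the resistant lines in that order against 0.325 CPM in sensitive cells, while COL1A2 averaged at most 0.0622 CPM in any group. The epithelial marker CDH1 averaged at most 0.159 CPM. Leukocyte markers (2 of 4) summed to at most 1.19 CPM and endothelial markers (3 of 3) to at most 7.28 CPM in any library. The part of these markers in the results that follow was not tested.

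Members were higher more often than lower in each resistant line. Of the 227 genes, 215 had enough counts to be tested, in an edgeR quasi-likelihood fit of all 17114 testable genes with Benjamini-Hochberg adjustment; a gene is said to have risen or fallen when its adjusted p was under 0.05. In EB-resistant against sensitive cells 74 members rose (34.4%) and 11 fell (5.12%), against 28.5% of all genes tested that rose and 27.6% that fell. In VC-resistant against sensitive cells 94 rose (43.7%) and 34 fell (15.8%), against 27.6% and 27.4% of all genes. In DT-resistant against sensitive cells 85 rose (39.5%) and 39 fell (18.1%), against 29.8% and 29.3% of all genes. The members' median log2 fold change (log2FC) was 0.22 for the EB-resistant, 0.29 for the VC-resistant and 0.26 for the DT-resistant line, where the median of all genes lay between -0.005 and 0.

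ZNF genes elsewhere in the genome were split more evenly. Among the 231 tested ZNF genes on other chromosomes, 56 rose and 60 fell in EB-resistant, 64 rose and 50 fell in VC-resistant and 74 rose and 57 fell in DT-resistant against sensitive cells. The other 738 tested protein-coding genes of chromosome 19 were also more evenly split, with 230 higher and 161 lower in EB-resistant, 216 and 212 in VC-resistant and 222 and 245 in DT-resistant cells. Called changes of at least 2-fold numbered 13 higher (6.05%) and 3 lower (1.4%) among members in EB-resistant cells, against 12.5% and 8.7% of all genes. In VC-resistant cells they numbered 38 (17.7%) and 3 (1.4%), against 9.64% and 9.23% of all genes. In DT-resistant cells they numbered 25 (11.6%) and 5 (2.33%), against 11.5% and 10.6% of all genes, so the share of large rises was below that of all genes in EB-resistant cells and near it in DT-resistant cells. Summed over all members, expression was 2411, 2425 and 2446 CPM in EB-resistant libraries, 2466, 2682 and 2726 in VC-resistant, 2380, 2438 and 2479 in DT-resistant, and 2167, 2179 and 2202 CPM in sensitive libraries. No sum of a resistant library overlapped those of the sensitive ones. These are bulk libraries, so more cells with a transcript and more transcript per cell cannot be told apart.

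**Figure D1:**
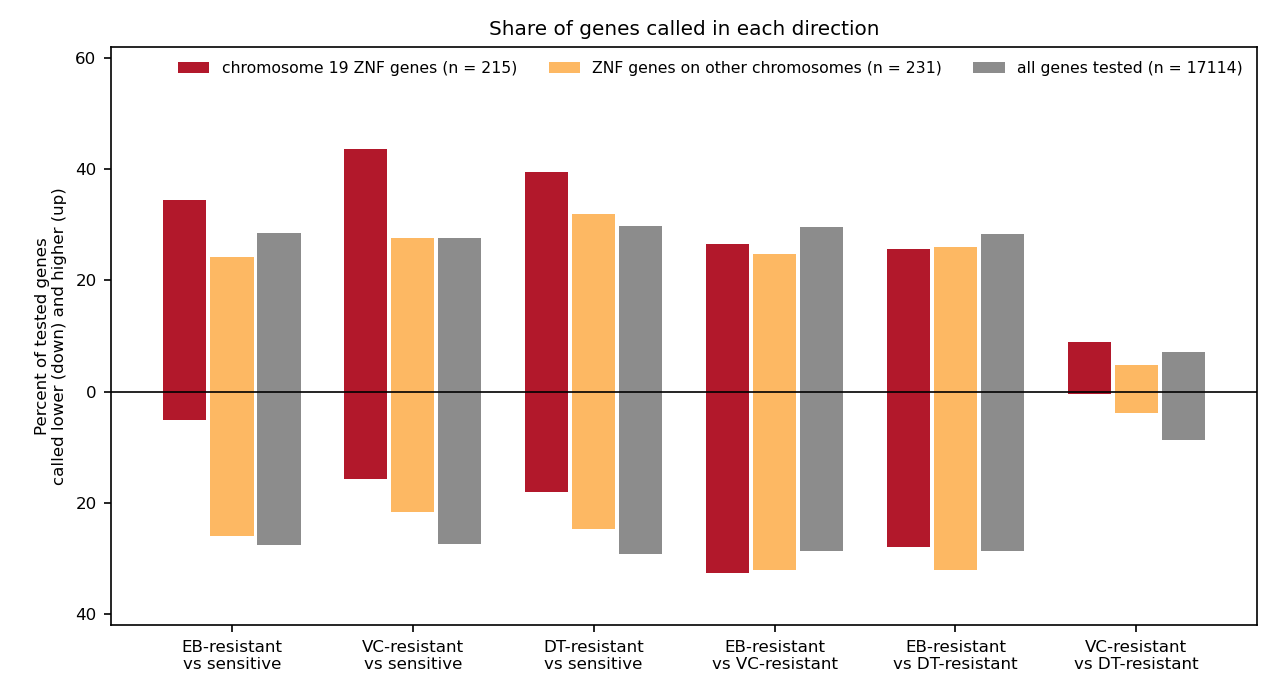
Percent of tested genes called higher (bars up) and lower (bars down) at an adjusted p under 0.05 in each of the 6 comparisons, for the 215 tested chromosome 19 ZNF genes, the 231 on other chromosomes and all 17114 genes. Against sensitive cells the bars of the chromosome 19 genes reach 34.4, 43.7 and 39.5% upward and 5.12, 15.8 and 18.1% downward.

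The comparisons share the 3 sensitive libraries, so a gene called in all of them is given as a description. There were 33 members higher in all 3 lines (15.35% of those tested, against 12.5% of all genes). Members lower in all 3 numbered 3 (1.4%, against 12.1% of all genes). The share higher in all 3 is thus near that of all genes. A low level in the sensitive cells bears on some of these calls through the filter: 15 of the 215 tested members were under its limit of 0.219 CPM in every library of at least 1 group, 11 of them in the sensitive group, and such a gene entered the test only because another group was higher. Among the 194 members at or above that limit in every library, 66 rose and 9 fell in EB-resistant, 82 and 33 in VC-resistant and 75 and 36 in DT-resistant cells. Called rises of at least 2-fold among them numbered 5 (2.58%), 26 (13.4%) and 15 (7.73%) in that order, and falls 1, 2 and 2. The shares of all genes given above were not restricted in this way.

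Ordered by their start, the 227 genes fall into 19 groups separated by more than 500 kb, 6 of them a single gene. The changes were unevenly spread over these clusters, and the largest rises were in the pericentromeric cluster that runs from ZNF101 to ZNF254, 4.46 Mb of the short arm (chr19:19668796-24129968, hg38) with 32 members. Its promoters resemble each other. RefSeq's GRCh38.p14 promoter table matched 201 of the 227 members, 27 of them in this cluster, and the 250 bases before the start were a median of 76.9% identical between pairs of cluster members, against 50.2% between a cluster member and another member. The letters CCAATCA, on either strand, occur in those 250 bases in 27 of 27 cluster members and in 2 or more copies in 15, against 30 of 174 other members and 1884 of 27305 promoters of the table (6.9%). These letters were picked after looking at the promoters; a match is a description of the sequence and no evidence that a factor binds.

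The 120 bases before the RefSeq start are shown for 8 cluster members. Against sensitive cells ZNF486, ZNF737, ZNF66 and ZNF43 rose in all 3 lines. ZNF626 and ZNF257 rose in VC- and DT-resistant cells alone by the test, and ZNF91 moved in opposite directions. ZNF724 was called in none of the lines against sensitive cells, but was lower in EB-resistant than in VC- and DT-resistant cells by the test. The 8 promoters can be read side by side. ZNF724 was chosen after its values were seen. They are written 5′ to 3′ on the gene's strand with CCAATCA in capitals.
ZNF486: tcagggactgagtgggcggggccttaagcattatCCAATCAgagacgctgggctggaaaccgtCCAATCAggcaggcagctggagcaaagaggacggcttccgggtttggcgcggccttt
ZNF737: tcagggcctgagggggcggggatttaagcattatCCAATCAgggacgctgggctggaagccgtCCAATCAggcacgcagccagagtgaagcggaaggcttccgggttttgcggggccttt
ZNF66: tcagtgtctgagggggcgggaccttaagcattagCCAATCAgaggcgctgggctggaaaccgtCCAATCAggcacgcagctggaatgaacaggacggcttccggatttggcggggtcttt
ZNF43: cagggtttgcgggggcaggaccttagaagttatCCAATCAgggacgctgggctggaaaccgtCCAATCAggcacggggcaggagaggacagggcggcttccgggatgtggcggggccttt
ZNF626: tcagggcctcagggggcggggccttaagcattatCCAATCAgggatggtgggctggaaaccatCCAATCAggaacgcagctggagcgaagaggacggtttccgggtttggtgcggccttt
ZNF257: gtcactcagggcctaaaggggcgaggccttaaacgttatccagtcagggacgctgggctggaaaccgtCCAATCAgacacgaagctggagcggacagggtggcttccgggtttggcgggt
ZNF91: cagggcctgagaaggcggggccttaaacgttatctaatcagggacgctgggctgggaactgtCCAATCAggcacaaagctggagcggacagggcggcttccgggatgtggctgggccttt
ZNF724: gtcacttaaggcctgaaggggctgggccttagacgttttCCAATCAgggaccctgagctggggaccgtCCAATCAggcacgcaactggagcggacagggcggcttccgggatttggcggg

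The segments are ZNF486 at chr19:20167094-20167213 on the plus strand, ZNF737 at chr19:20565782-20565901 on the minus strand, ZNF66 at chr19:20776184-20776303 on the plus strand, ZNF43 at chr19:21836183-21836302 on the minus strand, ZNF626 at chr19:20661572-20661691 on the minus strand, ZNF257 at chr19:22052364-22052483 on the plus strand, ZNF91 at chr19:23395472-23395591 on the minus strand and ZNF724 at chr19:23250395-23250514 on the minus strand. Between pairs of these 8 genes the full 250 bases before the start are 70.8 to 91.2% identical. The closest pair is ZNF486, which rose in EB-resistant cells, with ZNF626, which was not called there. Every cluster promoter in the table holds the motif, so its presence cannot differ between genes that rose and genes that fell. Among tested cluster members with a promoter, 2 or more copies were found in 5 of 7 that rose in EB-resistant cells, 0 of 4 that fell and 9 of 13 that were not called. For VC-resistant cells the counts were 13 of 22 that rose and 1 of 2 not called, and for DT-resistant cells 11 of 16 and 3 of 8. These are counts of few genes and were not tested. The cluster's promoters hold a median of 8 CG pairs in 250 bases, against 17 in other members and 11 in all promoters. The ZNF43 start in RefSeq lies 15943 bases from the start in the count table, so its segment may not be the promoter in use; 155 of 201 members had both starts within 200 bases.

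Of the cluster's 32 genes, 26 were tested, 6 of them under the filter's limit in every sensitive library. In VC-resistant against sensitive cells 23 rose and none fell by edgeR at an adjusted p under 0.05, with a median log2FC of 1.67 (1.59 with genes absent from a group at their bound). In DT-resistant cells 16 rose and none fell, with a median log2FC of 1.14, and in EB-resistant cells 8 rose and 5 fell, with a median of -0.05. The rises are 88.5, 61.5 and 30.8% in VC-, DT- and EB-resistant cells, against 27.6, 29.8 and 28.5% of all genes. The EB-resistant share of rises is thus near that of all genes. For the VC- and DT-resistant falls, edgeR gave 0 at an unadjusted p under 0.05 and DESeq2 called 0. The cluster's summed expression was 132, 131 and 145 CPM in EB-resistant replicates 2, 5 and 6, 332, 448 and 416 in VC-resistant, 214, 236 and 247 in DT-resistant, and 127, 141 and 152 CPM in sensitive replicates. The VC- and DT-resistant sums lie above all sensitive sums, and the EB-resistant sums lie among them. As a ratio to the mean of the sensitive libraries the sums were 0.972 for the EB-resistant, 2.85 for the VC-resistant and 1.66 for the DT-resistant line. VC-resistant replicate 2 was the lowest of its group in this cluster, and it had the smallest library total of the 12.

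**Figure D2:**
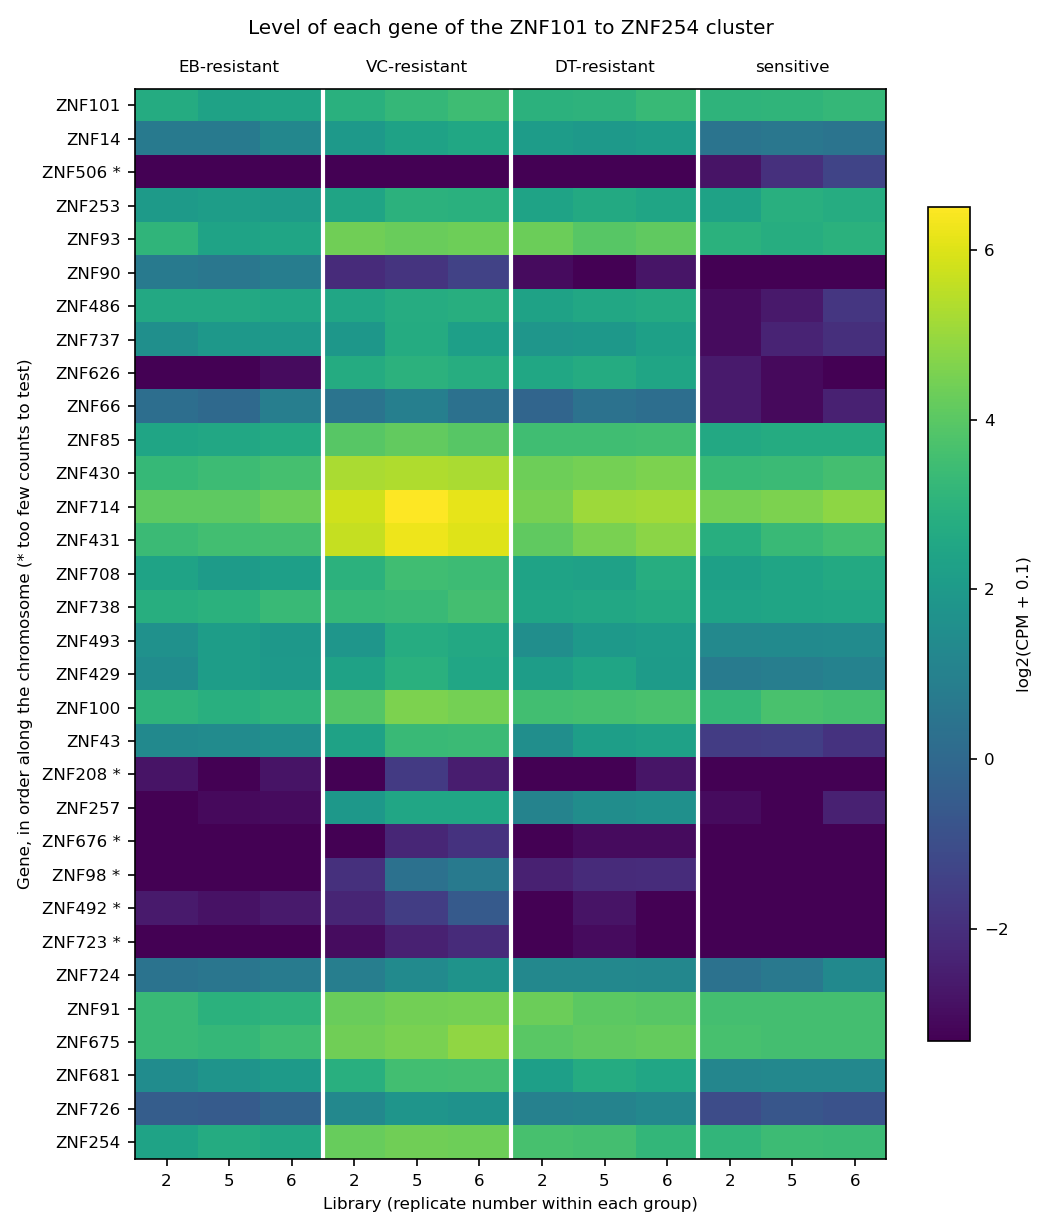
Level of each of the 32 genes of the ZNF101 to ZNF254 cluster in the 12 libraries, as log2(CPM + 0.1), with genes in order along the chromosome and an asterisk for those with too few counts to test. The ZNF93 to ZNF257 stretch is brightest in the VC-resistant columns, and ZNF486, ZNF737, ZNF66 and ZNF43 are dark only in the sensitive columns.

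A group of 4 genes of the cluster was nearly silent in sensitive cells and present in all 3 resistant lines. ZNF486 had 5.98, 6.03 and 5.55 CPM in EB-resistant, 5.51, 6.71 and 7.05 CPM in VC-resistant and 5.0, 5.91 and 6.36 CPM in DT-resistant libraries, against 0.0218, 0.0595 and 0.196 CPM in sensitive libraries. The 3 resistant lines overlapped one another and none reached down to the sensitive libraries. Its log2FC was 5.96 ± 0.32 (SE) in EB-resistant (adjusted p = 1.03e-09), 6.10 ± 0.32 in VC-resistant (1.77e-09) and 5.93 ± 0.33 in DT-resistant cells (1.71e-09), and 7.06, 7.20 and 7.03 without sensitive replicate 6, which held most of the sensitive counts. ZNF737 had 2.90 to 3.87 CPM in EB-resistant, 3.60 to 6.47 in VC-resistant and 3.53 to 4.77 in DT-resistant libraries, against 0.0218 to 0.152 CPM in sensitive ones (log2FC 5.21 ± 0.38, 5.70 ± 0.38 and 5.41 ± 0.38). ZNF66 was lower in level, at 0.936 to 1.74, 1.18 to 1.78 and 0.830 to 1.21 CPM in the 3 resistant lines in the same order and 0.0198 to 0.0870 CPM in sensitive cells (log2FC 4.4 ± 0.45, 4.58 ± 0.45 and 4.14 ± 0.46). None of ZNF486, ZNF737 and ZNF66 differed between resistant lines by the test.

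ZNF43, the 4th of these genes, was graded among the resistant lines. It had 2.44, 2.56 and 2.90 CPM in EB-resistant, 4.91, 9.97 and 10.3 CPM in VC-resistant and 2.77, 4.45 and 4.88 CPM in DT-resistant libraries, against 0.239, 0.258 and 0.174 CPM in sensitive libraries. All resistant libraries were above the sensitive ones, every VC-resistant library was above the EB-resistant and DT-resistant ones, and the EB-resistant and DT-resistant ranges overlapped. Against sensitive cells the log2FC was 3.54 ± 0.36 for EB-resistant, 5.21 ± 0.35 for VC-resistant and 4.15 ± 0.36 for DT-resistant cells. ZNF43 was lower in EB-resistant than in VC-resistant cells (-1.68 ± 0.26, adjusted p = 6.76e-05) and higher in VC-resistant than in DT-resistant cells (1.06 ± 0.26, adjusted p = 0.0103). The last call was lost with only those 2 groups in the fit (adjusted p = 0.0613) and without VC-resistant replicate 6 (0.0551).

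Transcripts of a second set were present in VC- and DT-resistant cells and nearly absent from both EB-resistant and sensitive cells. ZNF626 had 0, 0 and 0.0210 CPM in EB-resistant, 6.48, 7.90 and 6.79 CPM in VC-resistant and 5.62, 6.50 and 5.44 CPM in DT-resistant libraries, against 0.0653, 0.0198 and 0 CPM in sensitive libraries. Its log2FC against sensitive cells was 7.84 ± 0.37 in VC-resistant and 7.57 ± 0.38 in DT-resistant cells (9.08 and 8.81 without sensitive replicate 2). A single read of ZNF626 was counted in the EB-resistant line, in replicate 6, without which the line is at 0; with it, its level there was 1008-fold lower than in VC-resistant cells (95% counting interval 183 to 40460) and 836-fold lower than in DT-resistant cells (152 to 33500). ZNF257 had 0, 0.0204 and 0.0210 CPM in EB-resistant, 3.70, 5.55 and 5.49 CPM in VC-resistant and 1.98, 2.73 and 2.95 CPM in DT-resistant libraries, against 0.0218, 0 and 0.0870 CPM in sensitive libraries. The VC- and DT-resistant ranges of ZNF257 did not overlap each other or those of the other groups. Its log2FC was 7.02 ± 0.46 in VC-resistant (8.57 without sensitive replicate 6 and 6.44 without sensitive replicate 5) and 6.08 ± 0.47 in DT-resistant cells (7.62 and 5.49), and it was higher in VC-resistant than in DT-resistant cells (0.95 ± 0.26, adjusted p = 0.0232).

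ZNF90, next to ZNF486 in the order of tested genes, was highest in EB-resistant cells instead. It had 1.52, 1.41 and 1.68 CPM in EB-resistant, 0.131, 0.176 and 0.280 CPM in VC-resistant and 0.0213, 0 and 0.0461 CPM in DT-resistant libraries, against no count in any sensitive library. The 3 resistant lines did not overlap one another. Against a floor of 3 counts per library in the sensitive group, ZNF90 was at least 24.2-fold higher in EB-resistant and at least 3.09-fold higher in VC-resistant cells; counting intervals and floors cover counting error only. It was higher in EB-resistant than in VC-resistant cells (log2FC 2.92 ± 0.38, adjusted p = 2.41e-05) and 68.4-fold higher in EB-resistant than in DT-resistant cells (95% counting interval 23.5 to 339; fitted log2FC 5.96, or 6.83 without DT-resistant replicate 6).

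**Figure D3:**
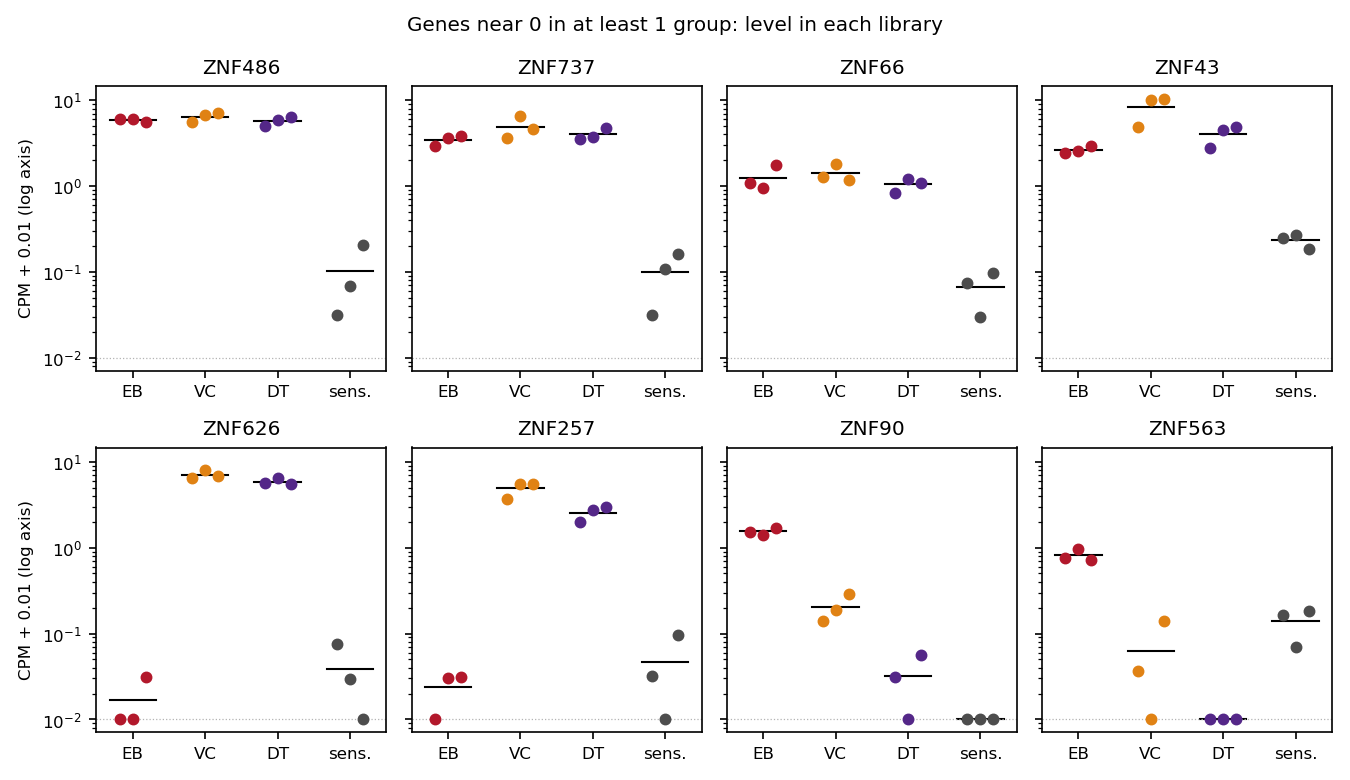
CPM + 0.01 on a log axis in each library for 8 genes near 0 in at least 1 group, with EB-resistant, VC-resistant, DT-resistant and sensitive libraries from left to right, a bar at each mean and a dotted line at 0 CPM. ZNF486, ZNF737, ZNF66 and ZNF43 are low in sensitive libraries alone, ZNF626 and ZNF257 are low in EB-resistant and sensitive libraries, and ZNF90 and ZNF563 are highest in EB-resistant libraries.

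The genes that rose in VC-resistant cells lie side by side, 17 consecutive tested members from ZNF93 to ZNF257 over 2191 kb. Of these 17, 6 were under the filter's limit in every sensitive library (ZNF90, ZNF486, ZNF737, ZNF626, ZNF66 and ZNF257), and others were clearly expressed in the parent line. ZNF430 had 9.46, 10.6 and 12.0 CPM in EB-resistant, 37.8, 40.2 and 37.7 CPM in VC-resistant and 20.4, 22 and 23.6 CPM in DT-resistant libraries, against 9.68, 10.3 and 11.8 CPM in sensitive libraries. The EB-resistant and sensitive values of ZNF430 overlapped, and the VC- and DT-resistant values stood apart from them and from each other (log2FC against sensitive 1.87 ± 0.11 and 1.06 ± 0.11; VC-resistant against DT-resistant 0.81 ± 0.10). ZNF431 showed the same order, with 10.2 to 11.9 CPM in EB-resistant, 49.2 to 76.9 in VC-resistant and 17.3 to 27.9 in DT-resistant libraries, against 7.14 to 11.5 CPM in sensitive ones (log2FC 2.73 ± 0.22 in VC-resistant and 1.25 ± 0.21 in DT-resistant cells). ZNF714 rose in VC-resistant cells (55.9, 90.9 and 71.4 CPM against 22, 23.5 and 28.6 CPM in sensitive cells, log2FC 1.56 ± 0.20); in DT-resistant cells, with 22.6, 33.5 and 35.1 CPM, it did not pass the test (adjusted p = 0.201). In DT-resistant cells the run was shorter, 6 tested members from ZNF486 to ZNF430, of which 4 were under that limit in every sensitive library.

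Direct comparison of the resistant lines put this cluster in the order VC-resistant, DT-resistant, EB-resistant. Of its 26 tested genes 13 were higher and none was lower in VC-resistant than in DT-resistant cells by edgeR at an adjusted p under 0.05 (median log2FC 0.52), against 7.08% of all genes higher and 8.71% lower. At an unadjusted p under 0.05, 0 were lower, and DESeq2 called 0 lower. Over all 215 tested members that comparison gave 19 higher and 1 lower (2 lower with the replicate number as a block, which pairs these 2 lines). Without VC-resistant replicate 6 there were 12 higher. The lower gene, ZNF415, named after its values were seen, was no longer called without VC-resistant replicate 2 or 5 or DT-resistant replicate 5 or 6. A run of 6 neighbours from ZNF85 to ZNF738, over 465.4 kb, was higher in VC-resistant than in DT-resistant cells (median log2FC 0.82). EB-resistant cells had 1 cluster gene higher and 21 lower than VC-resistant cells (median -1.30), and 2 higher and 16 lower than DT-resistant cells (median -0.72). Over all tested members, 57 were higher and 70 lower in EB-resistant than in VC-resistant cells, against 29.6% and 28.8% of all genes, and 55 higher and 60 lower than in DT-resistant cells, against 28.4% and 28.8%.

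Some genes of the cluster moved in opposite directions in different lines. ZNF91, which in human cells represses SVA retrotransposons, had 9.98, 7.61 and 7.98 CPM in EB-resistant, 18.9, 21.1 and 21.7 CPM in VC-resistant and 19.8, 16.2 and 15.5 CPM in DT-resistant libraries, against 11.9, 11.9 and 11.7 CPM in sensitive libraries. It was lower than in every sensitive library in the 3 EB-resistant ones and higher in the 6 others, with log2FC of -0.47 ± 0.12 in EB-resistant (adjusted p = 0.00465), 0.80 ± 0.12 in VC-resistant (5.84e-05) and 0.54 ± 0.12 in DT-resistant cells (0.00147). ZNF254 fell in EB-resistant (5.13, 6.47 and 5.78 CPM) and rose in VC-resistant cells (18.7, 20.4 and 20.1 CPM) against 8.71, 10.5 and 10.3 CPM in sensitive cells, with log2FC of -0.76 ± 0.14 and 1.00 ± 0.14; in DT-resistant cells its log2FC of 0.17 did not pass. ZNF93, which represses LINE elements, rose in VC-resistant (20.5, 19.3 and 20.1 CPM) and DT-resistant cells (19.4, 15.4 and 17.1 CPM) against 7.68, 6.85 and 7.74 CPM in sensitive cells (log2FC 1.43 ± 0.16 and 1.22 ± 0.16). In EB-resistant cells ZNF93, with 8.61, 5.13 and 5.44 CPM, did not pass the test (adjusted p = 0.285). ZNF675, an inhibitor of TRAF6 signalling, rose in VC- and DT-resistant cells (1.02 ± 0.12 and 0.50 ± 0.12). Transposable elements themselves are not in the count table.

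The cluster also holds 6 of the 12 members that were not tested, which are named here after their values were seen. ZNF98 had no count in EB-resistant libraries, 0.157, 1.17 and 1.57 CPM in VC-resistant and 0.0851, 0.132 and 0.138 CPM in DT-resistant libraries, and no count in sensitive libraries. ZNF208, ZNF676, ZNF492 and ZNF723 had at most 0.597 CPM in any library and no count in sensitive ones, and ZNF506 was counted in the sensitive group alone, at 0.0435, 0.159 and 0.305 CPM. The other 6 untested members, ZNF556, ZNF559-ZNF177, ZNF709, ZNF541, ZNF667 and ZNF132, were at most 0.286 CPM in every library.

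**Figure D4:**
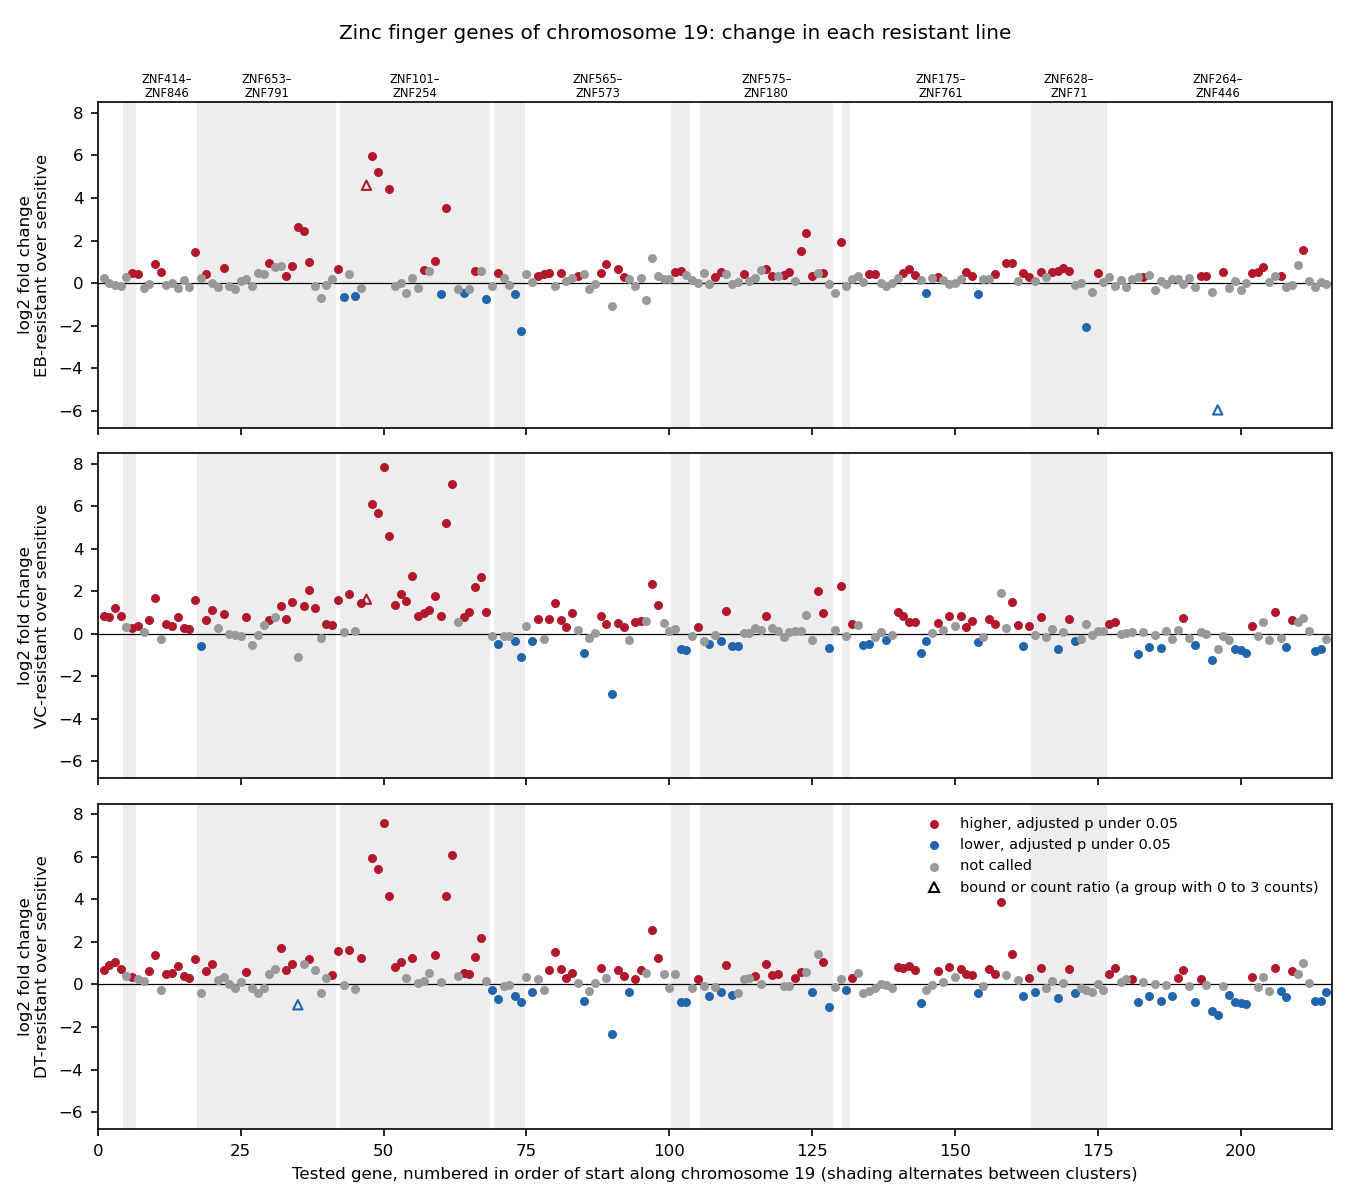
Log2 fold change of each tested member against sensitive cells in the EB-resistant (212 genes drawn), VC-resistant (215) and DT-resistant (214) line, numbered in order along chromosome 19, coloured by call; an open triangle is a bound or a ratio of counts. The tallest points in all 3 panels lie in the ZNF101 to ZNF254 cluster, where VC-resistant values reach 7.84; ZNF626, ZNF257 and ZNF415 in the first panel and ZNF90 in the third are left out because both groups were near 0.

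Near the tip of the short arm all 4 tested genes of a small cluster rose in VC- and DT-resistant cells. ZNF554, ZNF555, ZNF57 and ZNF77, 4 neighbours within 125.1 kb, rose in both, with a median log2FC of 0.84 in VC-resistant and 0.81 in DT-resistant cells, and none of them was called in EB-resistant cells by edgeR. At an unadjusted p under 0.05 the count was also 0, as it was by DESeq2. The rises are 100, 100 and 0% of these few genes in VC-, DT- and EB-resistant cells, against 27.6, 29.8 and 28.5% of all genes. ZNF57, picked from these after its values were seen, had 3.25, 3.66 and 3.57 CPM in EB-resistant, 8.89, 8.01 and 9.10 CPM in VC-resistant and 10.3, 6.79 and 5.99 CPM in DT-resistant libraries, against 4.22, 3.57 and 3.42 CPM in sensitive libraries (log2FC -0.10 ± 0.19, 1.21 ± 0.18 and 1.04 ± 0.18). With ZNF556, which was not tested, the cluster summed to 13.4 ± 0.652 CPM for EB-resistant, 26.1 ± 1.82 for VC-resistant and 24.7 ± 3.10 for DT-resistant cells, against 13.6 ± 0.676 CPM in sensitive cells (SD, n = 3 each). All 4 tested genes were lower in EB-resistant than in VC-resistant and in DT-resistant cells, against 28.8% of all genes in each comparison.

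In the ZNF414 to ZNF846 cluster, the genes that rose numbered 4 of 11 tested for EB-resistant, 9 for VC-resistant and 8 for DT-resistant cells, and none fell by edgeR. The rises are 36.4, 81.8 and 72.7% in that order, against 28.5, 27.6 and 29.8% of all genes. At an unadjusted p under 0.05, 1, 0 and 0 were lower in EB-, VC- and DT-resistant cells, and DESeq2 called 0 in each. A run of 6 neighbours from ZNF266 to ZNF846, over 380.8 kb, rose in both VC-resistant (median log2FC 0.41) and DT-resistant cells (0.51). Within it the VC-resistant call of ZNF561 was lost without VC-resistant replicate 6 or sensitive replicate 6 (adjusted p = 0.0604 and 0.0517 in edgeR). ZNF121, known as a partner of MYC, had 21.3, 16.3 and 16.9 CPM in EB-resistant, 33.5, 35.8 and 40.8 CPM in VC-resistant and 44.7, 35.9 and 37.2 CPM in DT-resistant libraries, against 24.6, 20 and 19.9 CPM in sensitive libraries. The VC- and DT-resistant values were above all others (log2FC 0.77 ± 0.13 and 0.87 ± 0.13), and those of EB-resistant and sensitive cells overlapped. ZNF846, at the end of the run, rose in all 3 lines: 2.08 to 2.79 CPM in EB-resistant, 2.35 to 2.91 in VC-resistant and 1.83 to 2.25 in DT-resistant libraries, against 0.849 to 0.892 CPM in sensitive ones (log2FC 1.46 ± 0.20, 1.58 ± 0.19 and 1.20 ± 0.20).

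In the ZNF653 to ZNF791 cluster 8 of 24 tested genes rose in EB-resistant cells, 13 rose in the VC-resistant and 8 in the DT-resistant line, and 0, 1 and 1 fell by edgeR. The rises are 33.3, 54.2 and 33.3% in that order, against 28.5, 27.6 and 29.8% of all genes. The EB- and DT-resistant shares of rises are thus near those of all genes. The falls are 0, 4.17 and 4.17%, against 27.6, 27.4 and 29.3% of all genes. In EB-resistant cells 0 were lower at an unadjusted p under 0.05, and 0 by DESeq2. Here EB-resistant cells had their longest run, 5 neighbours from ZNF136 to ZNF799 over 238.2 kb, 1 of them (ZNF563) under the filter's limit in every sensitive library, with a median log2FC of 0.97. ZNF442, in that run, had 0.688, 1.10 and 1.05 CPM in EB-resistant, 0.420, 0.440 and 0.410 CPM in VC-resistant and 0.277, 0.397 and 0.323 CPM in DT-resistant libraries, against 0.0871, 0.159 and 0.261 CPM in sensitive libraries. It was higher in EB-resistant than in sensitive (log2FC 2.47 ± 0.37), VC-resistant (1.16 ± 0.33) and DT-resistant cells (1.5 ± 0.34). ZNF563, next to it, had 0.750, 0.957 and 0.714 CPM in EB-resistant, 0.0262, 0 and 0.131 CPM in VC-resistant and no count in DT-resistant libraries, against 0.152, 0.0595 and 0.174 CPM in sensitive libraries. It rose in EB-resistant cells (log2FC 2.64 ± 0.55, adjusted p = 0.00109) and was at least 1.94-fold lower in DT-resistant than in sensitive cells. ZNF799 rose in all 3 lines and most in VC-resistant cells, with 2.27 to 3.62, 6.14 to 6.73 and 2.98 to 3.96 CPM in EB-, VC- and DT-resistant libraries, against 1.44 to 1.65 CPM in sensitive libraries (log2FC 0.97 ± 0.19, 2.06 ± 0.19 and 1.17 ± 0.19). The call of ZNF136 in EB-resistant cells (0.34 ± 0.11) was lost without EB-resistant replicate 2 or sensitive replicate 2 or 5.

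Sums of the long-arm clusters moved in both directions. The ZNF546 to ZNF780A cluster of 3 genes summed to 44.9 ± 0.699 CPM for EB-resistant, 20.9 ± 5.49 for VC-resistant and 20.8 ± 3.52 for DT-resistant cells, against 32.2 ± 2.07 CPM in sensitive cells (SD, n = 3 each). In the ZNF302 to ZNF792 cluster of 5 genes, 1 rose and 2 fell in EB-resistant, and 3 fell and none rose in VC-resistant and in DT-resistant cells by edgeR. The falls are 40, 60 and 60% of these few genes in EB-, VC- and DT-resistant cells, against 27.6, 27.4 and 29.3% of all genes. In VC- and in DT-resistant cells 0 were higher at an unadjusted p under 0.05, and 0 by DESeq2. ZNF792 had 1.52, 3.87 and 2.88 CPM in EB-resistant, 7.14, 5.70 and 5.67 CPM in VC-resistant and 8.49, 8.51 and 5.04 CPM in DT-resistant libraries, against 11, 14.6 and 13.8 CPM in sensitive libraries. Every resistant library was below the sensitive ones (log2FC -2.25 ± 0.28, -1.09 ± 0.27 and -0.83 ± 0.26). ZNF30, its neighbour, and ZNF320, in a different cluster, are the other members lower in all 3 lines (ZNF30 -0.51, -0.35 and -0.53; ZNF320 -0.51, -0.40 and -0.40 in EB-, VC- and DT-resistant cells). Only ZNF792, ZNF30 and ZNF320 met that rule, and the number fell to 1 without DT-resistant replicate 6 or sensitive replicate 5. The ZNF30 call in VC-resistant cells was lost with no low-count filter (adjusted p = 0.0736), with only the groups compared (0.0718) and without any 1 of 10 of the 12 libraries (0.0522 to 0.192) in edgeR. The ZNF792 call in DT-resistant cells was lost without DT-resistant replicate 6 (adjusted p = 0.0582) or sensitive replicate 5 (0.054) in edgeR. The ZNF320 call was lost in VC-resistant cells without VC-resistant replicate 2 (0.0754). In DT-resistant cells it was lost without DT-resistant replicate 2 (0.06). ZNF320 shares 71.6% of its transcript's 100-base windows with other genes, so its counts are uncertain. In the ZNF565 to ZNF573 cluster of 26, 9, 14 and 12 genes rose and 0, 3 and 4 fell by edgeR in EB-, VC- and DT-resistant cells. The rises are 34.62, 53.85 and 46.15%, against 28.5, 27.6 and 29.8% of all genes. In EB-resistant cells 1 was lower at an unadjusted p under 0.05, and 0 by DESeq2. ZNF529 to ZNF850, 5 neighbours, rose in both VC- and DT-resistant cells with a median log2FC of 0.68 in each. Of these, ZNF529 overlaps ZNF382, and ZNF567 overlaps ZNF850, on opposite strands. In DT-resistant cells the ZNF382 call was lost without DT-resistant replicate 2 or sensitive replicate 5 (adjusted p = 0.0804 and 0.058 in edgeR). The ZNF567 call was lost there with only the groups compared (0.0509). It was also lost without DT-resistant replicate 2 (0.0737) or sensitive replicate 2 (0.0871).

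**Figure D5:**
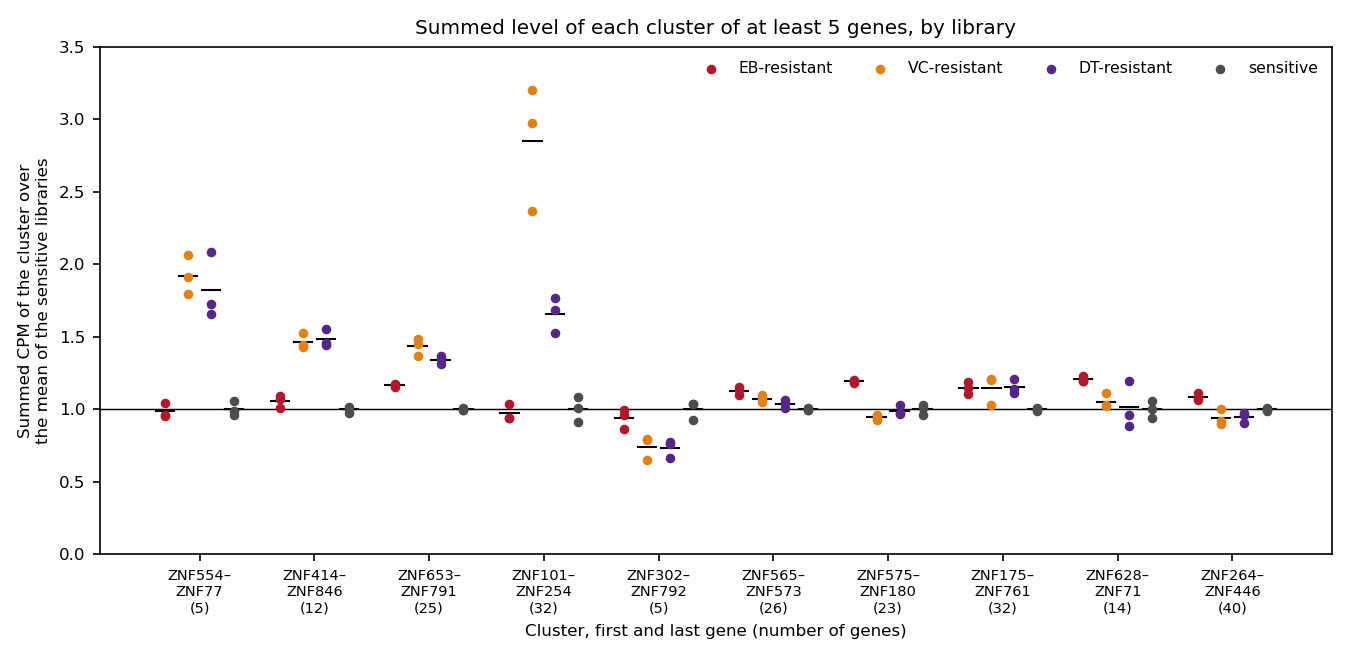
Summed CPM of each cluster of at least 5 genes in every library, divided by the mean of the 3 sensitive libraries, with a bar at each group's mean. The ZNF101 to ZNF254 cluster stands at 2.85 in VC-resistant and 1.66 in DT-resistant cells and at 0.972 in EB-resistant cells; the ZNF554 to ZNF77 cluster stands at 1.92, 1.82 and 0.985 in those lines.

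EB-resistant cells led in the ZNF575 to ZNF180 cluster, where 11 of 23 genes rose and none fell by edgeR. No more were lower there at an unadjusted p under 0.05 or by DESeq2 (0 each). The same cluster had 4 higher and 5 lower in VC-resistant and 8 higher and 5 lower in DT-resistant cells. The rises are 47.8, 17.4 and 34.8% in EB-, VC- and DT-resistant cells, against 28.5, 27.6 and 29.8% of all genes. ZNF235 had 8.46, 8.53 and 8.49 CPM in EB-resistant, 2.62, 3.21 and 4.14 CPM in VC-resistant and 5.32, 3.92 and 4.19 CPM in DT-resistant libraries, against 3.16, 3.16 and 2.72 CPM in sensitive libraries. Its EB-resistant values were above all others (log2FC 1.5 ± 0.17 against sensitive, 1.34 ± 0.17 against VC-resistant and 0.92 ± 0.17 against DT-resistant cells). ZNF233, which lies within the span of ZNF235 on the other strand, had 1.13, 2.28 and 1.95 CPM in EB-resistant libraries, against 0.522, 0.238 and 0.283 CPM in sensitive ones (log2FC 2.36 ± 0.34). Its calls in VC-resistant (adjusted p = 0.0510) and DT-resistant cells (0.206) did not pass. Reads of ZNF233 and ZNF235 may not have been separated, so their rises may not be independent. ZNF180 was lower in VC-resistant (8.24, 9.57 and 11.4 CPM) and DT-resistant libraries (6.75, 8.13 and 7.69 CPM) than in sensitive ones (13.1, 15.0 and 18.4 CPM), with log2FC of -0.67 ± 0.14 and -1.04 ± 0.15, while EB-resistant libraries, at 15.0, 14.3 and 16.4 CPM, overlapped the sensitive ones. The 9 tested genes of other kinds between the ends of this cluster had 2 higher and 4 lower in EB-resistant cells. In the ZNF628 to ZNF71 cluster, 4 neighbours within 40 kb, ZNF865, ZNF784, ZNF580 and ZNF581, rose in EB-resistant cells with a median log2FC of 0.58. ZNF580 and ZNF581 overlap on the same strand. The EB-resistant call of ZNF580 was lost without sensitive replicate 6 (adjusted p = 0.0539 in edgeR).

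The ZNF264 to ZNF446 cluster, at the end of the long arm, has 40 members, more than any other. Of 39 tested genes 9 rose and 1 fell in EB-resistant, 6 rose and 11 fell in VC-resistant and 9 rose and 16 fell in DT-resistant cells. The falls are 28.2% of the cluster in VC-resistant and 41% in DT-resistant cells, against 27.4% and 29.3% of all genes. ZNF551 had 17.8, 14.4 and 14.7 CPM in EB-resistant, 6.48, 9.11 and 10.9 CPM in VC-resistant and 6.60, 9.41 and 10.4 CPM in DT-resistant libraries, against 20, 19.4 and 23.0 CPM in sensitive libraries. All VC- and DT-resistant values were below the rest (log2FC -1.23 ± 0.19 and -1.24 ± 0.19; EB-resistant -0.41 ± 0.18, adjusted p = 0.0652). A run of 4 neighbours from ZNF586 to ZNF814, over 119.4 kb, fell in DT-resistant cells with a median log2FC of -0.84. In this run ZNF586 overlaps ZNF552 and ZNF587B, so their reads may not have been separated. ZNF274, which brings SETDB1 to zinc finger gene clusters themselves and is named here after its values were seen, had 26.3, 22.8 and 25.0 CPM in EB-resistant, 16.8, 18.3 and 19.5 CPM in VC-resistant and 17.8, 16.4 and 20.9 CPM in DT-resistant libraries, against 29.2, 25.9 and 28.9 CPM in sensitive libraries (log2FC -0.18 ± 0.10, adjusted p = 0.157; -0.62 ± 0.10 and -0.61 ± 0.10). ZNF671, also named afterwards, had 0.0417, 0 and 0 CPM in EB-resistant libraries, against 0.566 to 1.04 CPM in sensitive libraries, 62.4-fold lower with a 95% counting interval of 17.1 to 526.

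Members called higher in EB-resistant and lower in both VC- and DT-resistant cells numbered 5 (2.33% of those tested, against 2.51% of all genes), all on the long arm. Members called in opposite directions in any 2 lines, with those lines also called different from each other, numbered 12 in all (5.58%, against 9.35% of all genes). ZNF780B had 19.8, 20.9 and 20.3 CPM in EB-resistant, 6.19, 9.18 and 9.25 CPM in VC-resistant and 5.70, 8.06 and 8.89 CPM in DT-resistant libraries, against 12.9, 12.6 and 15.2 CPM in sensitive libraries. EB-resistant values lay above, and VC- and DT-resistant values below, every sensitive value (log2FC 0.59 ± 0.16, -0.72 ± 0.17 and -0.84 ± 0.17). ZNF302 had 25.1, 24.1 and 27.5 CPM in EB-resistant, 10.8, 14.1 and 15.0 CPM in VC-resistant and 9.38, 12.2 and 12.6 CPM in DT-resistant libraries, against 16.3, 18.6 and 20.2 CPM in sensitive libraries, and showed the same order without overlap (0.48 ± 0.14, -0.46 ± 0.14 and -0.69 ± 0.14). ZNF480 was lower in VC-resistant (13.5, 19.8 and 20.1 CPM) and DT-resistant (14.4, 18.8 and 21.7 CPM) than in sensitive libraries (29.3, 33.8 and 36.2 CPM), and did not pass the test in EB-resistant cells (35.4, 37.0 and 37.6 CPM; adjusted p = 0.441). ZNF114, a lone gene on the long arm, rose in EB-resistant (2.98, 2.83 and 3.74 CPM) and VC-resistant cells (2.39, 4.42 and 5.06 CPM) and not in DT-resistant cells (0.808, 0.992 and 1.22 CPM) by the test, against 0.718, 0.595 and 1.22 CPM in sensitive cells, and it was higher in VC-resistant than in DT-resistant cells (log2FC 1.98 ± 0.30).

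Read per length, the most abundant member in every group was ZNF146, a protein made almost wholly of zinc fingers, with 34.3, 25.9, 25.9 and 32.9 RPKM (CPM per kilobase of gene length in the table) in EB-resistant, VC-resistant, DT-resistant and sensitive cells. The median member had 1.32, 1.48, 1.41 and 1.32 RPKM. ZNF146 fell in VC- and DT-resistant cells (log2FC -0.35 ± 0.06 in each) and not in EB-resistant cells by the test; it is named after its values were seen. The genes with the largest folds stayed low in level: ZNF486 reached 1.37, 1.5 and 1.35 RPKM in EB-, VC- and DT-resistant cells, near the median member, and ZNF66 0.220, 0.247 and 0.183 RPKM.

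Within a cluster, adjacent tested members that were both called went in the same direction in 30 of 34 pairs (88.2%) in EB-resistant, 60 of 74 (81.1%) in VC-resistant and 49 of 67 (73.1%) in DT-resistant against sensitive cells. For all adjacent tested protein-coding genes of the genome the shares were 68.9, 63 and 62%. Since members were mostly called higher, called pairs of members tend to one direction. Over all 197 adjacent pairs of tested members, called or not, the log2FC had the same sign in 56.4% of pairs for the EB-resistant, 65% for the VC-resistant and 64.5% for the DT-resistant line, against 60.4%, 56.4% and 56.2% of pairs across the genome. Members that overlap a neighbour or share sequence with it can be counted together, so these pairs are not independent. Of the 227 members 110 overlap another gene of the table, 77 of them a gene on the other strand; the kit keeps strand, but whether the counting used it is not given in the sources used here, so reads of such pairs may not have been separated. In transcripts of the GENCODE v29 reference, 123 members share no 100-base window with another gene and 37 share more than 10% of theirs. The share is 0 for ZNF737, ZNF66, ZNF43 and ZNF257, 0.12% for ZNF486, 3.91% for ZNF626 and 6.69% for ZNF90, and reaches 23.7% for ZNF98 and 41.9% for ZNF724.

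Genes of the machinery that works with KRAB zinc finger proteins, a list of repressor and chromatin genes chosen for their function with earlier results of these data known, had 35 members, all tested. Of these 5 rose (14.3%) and 12 fell (34.3%) in EB-resistant, 7 rose (20%) and 15 fell (42.9%) in VC-resistant and 6 rose (17.1%) and 15 fell (42.9%) in DT-resistant against sensitive cells. Of all genes 28.5, 27.6 and 29.8% rose and 27.6, 27.4 and 29.3% fell in the same comparisons. TRIM28, the shared corepressor, was at 414 ± 11.4 CPM for EB-resistant, 328 ± 16.4 for VC-resistant and 299 ± 23.1 for DT-resistant cells, against 496 ± 42.7 CPM in sensitive cells (SD, n = 3 each; log2FC -0.26, -0.60 and -0.73, all called). DNMT1, which copies DNA methylation, fell by 0.91, 0.76 and 1.08 on the log2 scale, and UHRF1, which guides it to newly made DNA, fell by 0.75, 1.40 and 1.83 in the same lines. SETDB1 went the other way, with 39.7 ± 0.890 CPM for EB-resistant, 39.0 ± 5.08 for VC-resistant and 42.6 ± 4.26 for DT-resistant cells, against 28.6 ± 1.32 CPM in sensitive cells (log2FC 0.47, 0.45 and 0.58). TASOR and PPHLN1, subunits of the HUSH silencing complex, fell in all 3 lines and MORC2, which acts with that complex, rose in all 3 (0.21, 0.26 and 0.24). MPHOSPH8, a further subunit, fell in DT-resistant cells (-0.36) and was not called in EB-resistant (0.05) or VC-resistant cells (-0.19). CBX5, which encodes a heterochromatin protein, rose in EB-resistant (0.33 ± 0.09) and fell in VC- and DT-resistant cells (-0.42 ± 0.09 and -0.36 ± 0.09). The part of these genes in the changes of the zinc finger genes was not tested.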

How the data were processed

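Per the labels' protocols, polyadenylated RNA was made into strand-specific libraries and read as 100-base pairs. Per the submitters' processing notes, bcl2fastq 2.20.0, STAR 2.7.10b, featureCounts 2.0.1, DESeq2 1.38.3 and build hg38 were used. How the counting treated strand, and its annotation release, is not given in the sources used here. The deposited values used are raw counts per gene, made by the authors; their normalised table was left out.

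Members and gene lists were chosen with earlier results of these data known. filterByExpr by group kept 17114 of 23497 genes. TMM scaling and a robust quasi-likelihood fit in edgeR 4.0.16, under R 4.3.3 with limma 3.58.1, took all 12 libraries together, with 1 coefficient for each of the 4 groups and 8 residual degrees of freedom. Adjustment was by Benjamini-Hochberg across the genes tested in each of the 6 comparisons. CPM use the TMM-scaled totals, and RPKM also the length column of the table. Where a group had 0 counts the fold is a bound, computed with 3 counts in each of its libraries; where it had 1 to 3, it is the ratio of mean CPM with a 95% counting interval. The rule for named members took the 6 strongest called changes each way against sensitive (4 each way between lines) at 1 CPM or more in the higher group, up to 6 per direction shared by the 3 lines, runs of 4 or more neighbours, and genes called in opposite directions; a gene outside it that is described singly is said to be named after its values were seen.

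Same-numbered VC-resistant and DT-resistant libraries deviated together (r = 0.337, 0.151 and 0.195 for replicates 2, 5 and 6), so the data pair these lines. The pairing is less clear for replicate 5, where the best differently numbered library gave r = 0.136. The main fit left the pairing out, and the fit with the replicate number as a block took it in. No other pair of groups had every r over 0.1. No duplicate libraries were found. The fit was tested on simulated data. Promoters were read with Python 3.11.15 and aligned with Biopython 1.88.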

Additional observations from a re-analysis of the deposited data

Results flagged for a closer look

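A set of 12 genes was called in opposite directions against sensitive cells in 2 resistant lines, with the difference between those lines itself called in edgeR. They are 5.58% of the tested members, against 9.35% of all genes. Most were higher in EB-resistant than in the other line. ZNF780B differed by a log2FC of 1.30 between EB-resistant and VC-resistant cells and 1.43 between EB-resistant and DT-resistant cells, and ZNF784 by 1.31 and 1.21. ZNF302 differed by 0.94 and 1.17, ZNF765 by 1.05 and 1.03 and ZNF283 by 0.85 and 0.84 in the same 2 comparisons. Against VC-resistant cells alone ZNF613 met the rule at 0.90, and against DT-resistant cells alone ZNF112 did at 0.70 and ZNF329 at 0.66. ZNF563 was at least 12.2-fold higher in EB-resistant than in DT-resistant cells, where it had no count. Genes of the ZNF101 to ZNF254 cluster went the other way: ZNF254 was lower by a log2FC of -1.77 and ZNF100 of -1.32 in EB-resistant than in VC-resistant cells, and ZNF91 of -1.27, and of -1.01 against DT-resistant cells.

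Calls against sensitive cells were lost in at least 1 alternative for ZNF765 in all 3 lines, ZNF112 in EB- and DT-resistant, ZNF283 in VC- and DT-resistant, ZNF613 in EB- and VC-resistant, ZNF302 in VC-resistant, ZNF329 in DT-resistant and ZNF100 in EB-resistant cells.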

How the results depend on the processing

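Counts of members called kept within 1.5 times of the value given in 294 repeats and not in 10. The exceptions were VC-resistant against DT-resistant, where 12 members were higher without VC-resistant replicate 6 and 2 were lower with DESeq2 or with the replicate block, and the members lower in all 3 lines, 1 without DT-resistant replicate 6 or sensitive replicate 5. Leaving out each library in turn gave 58 to 81 higher and 9 to 13 lower in EB-resistant, 88 to 101 and 24 to 34 in VC-resistant and 80 to 93 and 30 to 40 in DT-resistant against sensitive cells, 12 to 25 and 0 to 3 in VC-resistant against DT-resistant cells, and 26 to 37 higher and 1 to 4 lower in all 3 lines. The replicate block gave 80 higher and 14 lower in EB-resistant, 98 and 34 in VC-resistant, 90 and 42 in DT-resistant against sensitive, and 24 and 2 in VC-resistant against DT-resistant cells. Of 148 calls of 64 named genes, 125 held in every alternative, 23 were lost in at least 1 and none reversed; the cause was not tested. With clusters split at gaps of 1 Mb there were 15 of them, and the ZNF101 to ZNF254 cluster kept its 32 members. The counts for that cluster were added after seeing the data. At this depth, genes that did not reach 0.219 CPM in enough libraries were not tested in the main fit.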
